A study of Mus musculus with 130 samples.

Results

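The major urinary proteins are encoded by a cluster of closely related genes on mouse chromosome 4, and 9 of them were followed here in the livers of iron-fed male mice: Mup3, Mup7, Mup11, Mup14, Mup15, Mup17, Mup19, Mup20 and Mup21. They were chosen by name, as listed genes whose symbols were matched to Ensembl identifiers, and their sum was taken as a further measure. The list was drawn up with the 2% iron results of these data in view, so the change of the 9 genes on 2% iron is given as a description, without a test. The 9 genes are part of 22 protein-coding Mup genes in the annotation, and of 35274 identifiers in the diet table and 35711 in the strain panel table. All 9 passed the filter on low counts in both tables.

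Liver RNA was sequenced from 130 male mice in a study of dietary iron overload. In the diet study, C57BL/6J mice, an inbred strain, were given one of 5 diets, with 3 mice on each: chow, sufficient iron (50 ppm), elevated iron (500 ppm), 2% carbonyl iron (20000 ppm), or this same 2% carbonyl iron where the fiber source is given as cellulose. In the panel, 114 strains ate chow for 4 weeks and then the 2% iron diet for 6 weeks, with 1 mouse per strain and 2 mice of 129X1/SvJ. Its recombinant inbred strains are 56 BXD lines, 20 AXB/BXA lines, 4 BXH lines and 3 CXB lines. In these the genomes of a parental pair (C57BL/6J and DBA/2J for BXD, A/J and C57BL/6J for AXB/BXA) are reassorted and fixed. The BXD24 line is labelled BXD24/TyJ-Cep290<rd16>/J. The substrains AXB19, AXB19a and AXB19b, and BXD48 and BXD48a, are counted as separate strains. The remaining 31 strains are other inbred strains. Within the panel every mouse ate 2% iron, so no panel mouse serves as a low-iron control, and with 1 mouse per strain the difference between strains holds the difference between mice as well. Nothing in the labels gives ages, batches, the fiber of the other diets or the length of feeding in the diet study.

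Libraries held 10.42 to 20.36 M estimated counts in the diet study and 9.41 to 20.57 M in the panel (M, mega). The library labelled BXD65 had a Y-linked level of 3.93 CPM (counts scaled to a common library total), against 122 to 328 in the other 114 panel libraries, which goes against its label as a male, and relations across strains were also computed without it. Hepatocyte genes such as that of albumin were abundant in every library, with 10 of them summing to 96390 to 124900 CPM in the diet mice and 80500 to 233600 CPM in the panel. Summed CPM of 8 exocrine pancreas genes was 0.353 to 1.37 in the diet mice and reached 103 in the panel.

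Major urinary proteins are small secreted lipocalins, made mainly in hepatocytes, that carry volatile pheromones in their barrel-shaped pocket and are excreted in urine, where they serve in scent marking. Their expression is higher in males, and it depends on the pulsatile male pattern of growth hormone, acting through the growth hormone receptor, JAK2 and STAT5B, with thyroid hormone and glucocorticoid as further inputs. ZHX2, a transcriptional regulator, and the KRAB zinc finger protein RSL1 are known genetic modifiers of Mup expression. Mup20 encodes darcin, a urinary protein that itself acts as a male sex pheromone, and the central members of the cluster (here Mup7, Mup11, Mup14, Mup15, Mup17 and Mup19) are recent copies of each other, while Mup3, Mup20 and Mup21 are more diverged.

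The 9 genes lie on the minus strand of chromosome 4 in GRCm38. The central copies are Mup7 (ENSMUSG00000073842) at 60066469 to 60070475, Mup11 (ENSMUSG00000073834) at 60658466 to 60662411, Mup14 (ENSMUSG00000073830) at 61300023 to 61304000, Mup15 (ENSMUSG00000096674) at 61435790 to 61439743, Mup17 (ENSMUSG00000096688) at 61591929 to 61595871 and Mup19 (ENSMUSG00000078673) at 61778324 to 61782269. Mup20 (ENSMUSG00000078672) lies at 62050234 to 62054158, Mup3 (ENSMUSG00000066154) at 62083476 to 62087342 and Mup21 (ENSMUSG00000066153) at 62147932 to 62150863. Together they span 2.08 Mb of a cluster of 2.19 Mb. Counts of single copies are uncertain because their transcripts are so alike. All 31-base words of Mup15 and of Mup19 also occur in another Mup transcript, as do 83.3% to 89.2% of the words of Mup7, Mup11, Mup14 and Mup17. The words found in no other gene make up 69.9% of Mup3, 66.2% of Mup21 and 35.5% of Mup20. Values of Mup3, Mup20 and Mup21 therefore rest on reads of their own more than the others do, and the split of reads among the central copies is the quantifier's estimate.

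The promoters show the same division into central and diverged genes. Sequences were taken from RefSeq on GRCm38.p6, from 250 bases before to 50 after each start, and 8 of the 9 members had an entry. By the coordinates printed below, each TATATAA box falls inside the gene span given above, which came from GENCODE. The reason was not examined. Shown are the 120 bases before the TATATAA box of Mup3 and Mup21 (the diverged pair), of Mup15 and Mup19 (whose windows are the same) and of Mup14 (a central copy with a longer run of A), on the minus strand, 5′ to 3′, with the box in capitals.
Mup3 chr4:62087322-62087448: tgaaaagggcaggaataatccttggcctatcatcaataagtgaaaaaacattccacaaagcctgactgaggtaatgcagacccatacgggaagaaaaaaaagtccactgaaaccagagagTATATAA
Mup21 chr4:62150843-62150969: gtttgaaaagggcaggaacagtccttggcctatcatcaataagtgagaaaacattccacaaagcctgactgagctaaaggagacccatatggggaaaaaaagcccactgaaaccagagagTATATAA
Mup15 chr4:61439723-61439849: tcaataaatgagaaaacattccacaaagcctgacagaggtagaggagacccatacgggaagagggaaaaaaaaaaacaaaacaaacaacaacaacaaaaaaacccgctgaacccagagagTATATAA
Mup19 chr4:61782249-61782375: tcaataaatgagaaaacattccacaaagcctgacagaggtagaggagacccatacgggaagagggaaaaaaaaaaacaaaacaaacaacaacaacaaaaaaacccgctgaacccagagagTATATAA
Mup14 chr4:61303980-61304106: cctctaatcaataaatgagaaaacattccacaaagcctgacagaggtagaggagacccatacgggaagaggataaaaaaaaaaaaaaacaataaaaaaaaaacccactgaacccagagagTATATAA

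Over these 127 bases Mup15 and Mup19 were identical, Mup11 and Mup17 matched at 98.4% of aligned positions, and Mup3 and Mup21 at 89.2%. Mup3 matched the central copies at 51.6% to 61.2%, with gaps counted as differences. Searching both strands of the promoter sequences, TATATAA was found in 7 of 8 members (not in Mup7), against 3.84% of 27025 genes. The letters ATCAAT, part of the motif of the liver factor HNF6 (Onecut1), were found in 8 of 8 and in 8.63% of genes. The STAT5 motif TTCNNNGAA was found in 0 of 8 and in 9.55% of genes, and TGTTCT, one arm of a steroid receptor site, in 2 of 8 (Mup3 and Mup21) and in 21.28% of genes. These are matches of letters in one window per gene and no measurement of binding.

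On the 2% iron diet the summed Mup level of C57BL/6J liver was about an order of magnitude under that of the other diets, and with cellulose it was lower again. The 9 genes together gave 27606, 31897 and 21763 CPM in the 3 chow mice. They gave 43957, 16421 and 16372 CPM at 50 ppm, and 24140, 13123 and 28775 CPM at 500 ppm. They gave 1482.8, 2603.1 and 2140.4 CPM on 2% iron, and 305.5, 355.2 and 570.2 CPM on 2% iron with cellulose. No mouse on 2% iron reached the lowest mouse of the 3 other diets, and no cellulose mouse reached the lowest mouse on 2% iron alone. The mean was 8.11% of the 50 ppm mean on 2% iron and 1.60% with cellulose. Replicate 1 of the 50 ppm group was high; without it the shares were 12.70% and 2.50%. In whole liver RNA, fewer expressing cells and less RNA per cell cannot be told apart. In the same mice the summed CPM of 10 hepatocyte genes was 117500 to 124900 on 2% iron and 101200 to 109600 at 50 ppm, and that of 9 Kupffer cell and macrophage genes was 575.7 to 614.5 and 140.9 to 236.6; the part of either in the Mup values was not tested.

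Each of the 9 genes followed this order. All 9 were lower without overlap on 2% iron than at 50 ppm (17.7% of 13560 genes), than at 500 ppm (13.9%) and than on chow (19.8%). All 9 were also lower with cellulose than on 2% iron alone (9.34%) and than at 50 ppm (22.1%). The members were listed for being lower, so nothing is read from these counts. The median log2 change of the 9 was -6.62 against 50 ppm, -6.34 against 500 ppm and -6.22 against chow, where the medians of all genes were 0.00919, 0.000479 and 0.00641. It was -2.46 for cellulose against 2% iron, where that of all genes was 0.000103. These comparisons share groups of mice.

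Mup3, a diverged member that is also abundant, differed the least between 50 ppm and 2% iron. It was at 5616.6, 4211.8 and 4348.1 CPM at 50 ppm, 1006.0, 1688.8 and 1175.7 CPM on 2% iron, and 179.93, 227.86 and 401.32 CPM with cellulose. The step to 2% iron was 3.66-fold (log2 -1.87, SE 0.29) and the step from there to cellulose 4.78-fold (log2 -2.26, SE 0.30), so that for Mup3 both steps were of similar size. The chow mice, at 5429.8, 6435.6 and 4704.3 CPM, and the 500 ppm mice, at 4978.9, 3002.0 and 4601.1 CPM, overlapped the 50 ppm mice.

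Mup20, the darcin gene, had the highest mean at 50 ppm, with 11253, 4825.0 and 5144.8 CPM. It was at 327.24, 720.06 and 732.61 CPM on 2% iron, 11.9-fold lower (log2 -3.58, SE 0.40), and at 106.10, 114.50 and 137.78 CPM with cellulose. Mup21, the outermost gene of the cluster and the least abundant of the diverged members, was at 217.88, 100.92 and 122.06 CPM at 50 ppm, 5.6349, 14.668 and 10.838 CPM on 2% iron and 1.6101, 1.7643 and 2.2334 CPM with cellulose. Its log2 change was -3.83 (SE 0.35) on 2% iron and -2.46 (SE 0.42) from there to cellulose.

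The central copies among the members were lower by much larger estimated factors. Of the Mup genes outside the list that are described below, Mup10 (log2 -2.53) and Mup18 (-2.37) changed by less than Mup20. Mup1 (-5.96) and Mup9 (-5.79) changed by more. The part of read assignment in these differences was not tested. Mup19 was at 7559.6, 4227.7 and 4028.3 CPM at 50 ppm, 112.12, 133.25 and 172.29 CPM on 2% iron and 7.1649, 6.969 and 18.175 CPM with cellulose. That is 37.9-fold lower on 2% iron (log2 -5.24, SE 0.45) and a further 12.9-fold lower with cellulose (log2 -3.69, SE 0.43), the widest cellulose step of the 9; without cellulose replicate 3 that step was -4.30. Mup11 was at 4404.9, 1136.0 and 1186.7 CPM at 50 ppm, 11.27, 15.912 and 12.374 CPM on 2% iron and 2.9787, 1.0586 and 1.6943 CPM with cellulose. Its log2 change on 2% iron was -7.41 (SE 0.64), a 170.0-fold difference. Mup14 was at 2611.2, 427.45 and 362.21 CPM at 50 ppm and at 6.9608, 14.668 and 12.886 CPM on 2% iron, 98.6-fold lower.

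Mup7 had the largest estimated difference of the 9 between 50 ppm and 2% iron, an estimate that rests on 1 control mouse. It was at 9516.7, 10210 and 5620.6 CPM on chow, and at 9976.6, 895.98 and 724.83 CPM at 50 ppm, where replicate 1 alone lay in the chow range. It was at 10.938, 10.667 and 15.446 CPM on 2% iron (log2 -8.29, SE 1.05), and at 6.3598, 1.4115 and 3.7737 CPM with cellulose. Without replicate 1 of the 50 ppm group its change on 2% iron was -6.04, smaller than that of Mup17 (-6.75, from -7.95), Mup15 (-6.49, from -7.46) and Mup11 (-6.46, from -7.41), and that of Mup14 was -5.10 (from -6.62). From 2% iron to cellulose Mup7 had the smallest change of the 9 (-1.67, SE 0.90). Mup15 and Mup17 were the least abundant central copies, and their remaining signal was a few reads. Mup15 was at 999.84, 275.98 and 238.82 CPM at 50 ppm and at 1.4916, 2.578 and 4.5228 CPM on 2% iron; with cellulose its estimated counts were 4.91, 0 and 4.14. Mup17 was at 1317.4, 320.25 and 216.12 CPM at 50 ppm, 1.1601, 2.578 and 3.7548 CPM on 2% iron and below 0.5 CPM in each cellulose mouse.

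**Figure D1:**
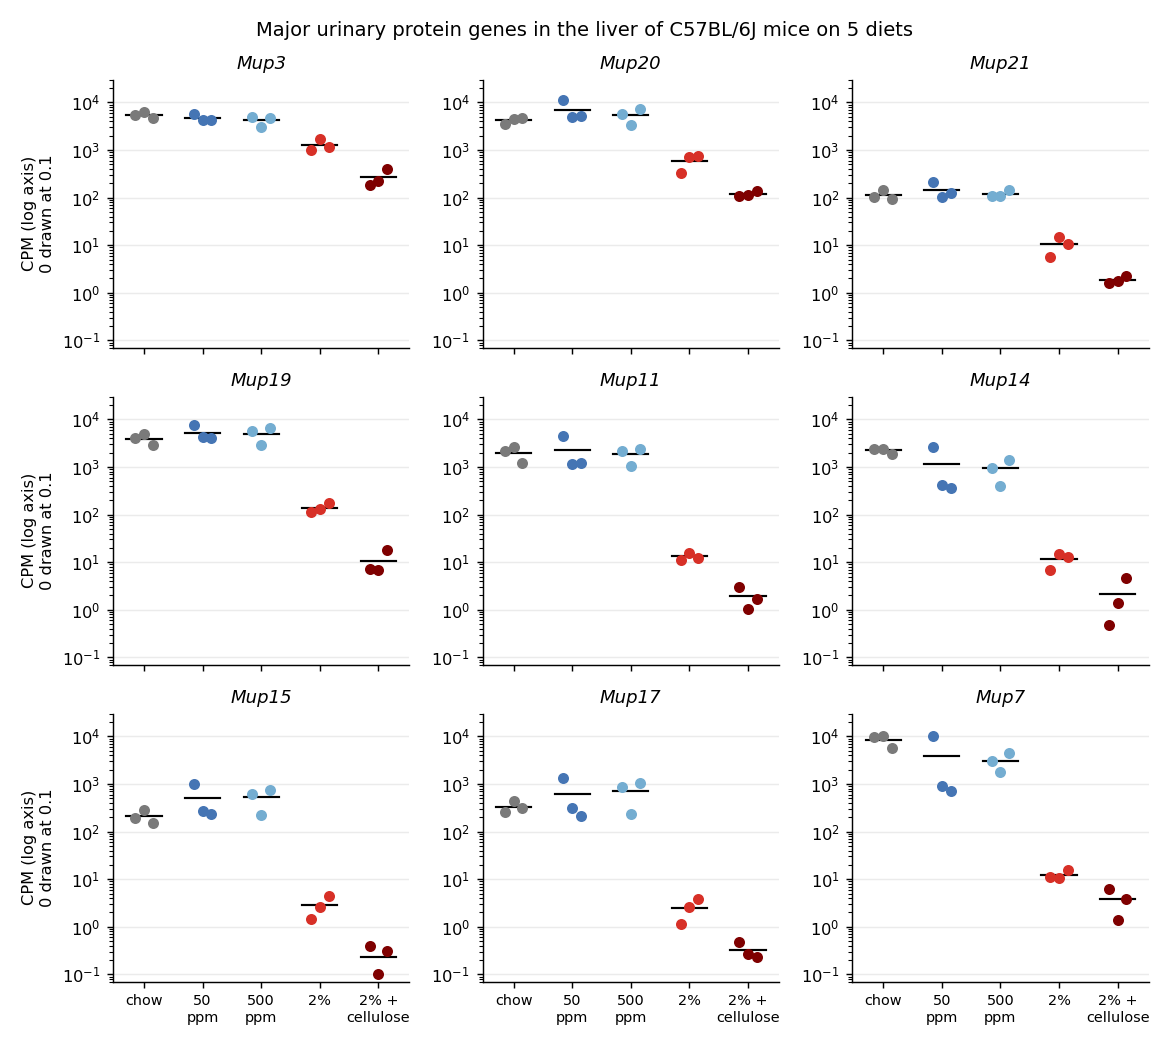
CPM of each of the 9 genes (vertical log axis; a value of 0 is drawn at 0.1) in the 15 C57BL/6J mice by diet; each point is a mouse and each line a group mean. Every gene is lower in the 3 mice on 2% iron than in the chow, 50 ppm and 500 ppm mice and lower again with cellulose, by the least for Mup3 at the first step.

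Because the genes changed by unequal factors, the make-up of the members' RNA differed between diets. The 13 other Mup genes are left out of the orders and shares given here. On 2% iron those genes summed to 1102 to 1780 CPM, where the members summed to 1483 to 2603 CPM. In TPM, which is scaled by transcript length as well as library total and so compares genes, the order at 50 ppm was Mup20 at 9161 ± 3875 (SD, n = 3), Mup19 at 6893 ± 1978, Mup3 at 6219 ± 539, Mup7 at 4757 ± 6257 and Mup11 at 2913 ± 2182. Neighbours in that order lay within their spread. On chow Mup7 was first at 10523 ± 2806, followed by Mup3 at 6939 ± 700. On 2% iron Mup3 was first at 1795 ± 555, followed by Mup20 at 822 ± 318 and Mup19 at 194 ± 35.4, and with cellulose Mup3 was at 394 ± 178, Mup20 at 174 ± 27 and Mup19 at 15.9.

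Mup3 made up 54.5% to 67.5% of the members' TPM on 2% iron and 58.6% to 69.6% with cellulose, against 12.7% to 26.3% at 50 ppm. Mup7 made up 25.4% to 34.1% on chow, 4.51% to 22.4% at 50 ppm and at most 0.838% on 2% iron. Mup20 made up 25.5% to 31.2% at 50 ppm and 22% to 34% on 2% iron, ranges that overlap, but 12.7% to 21.9% on chow. The ratio of Mup19 to Mup3 was 0.931 to 1.35 at 50 ppm, 0.0801 to 0.148 on 2% iron and 0.0306 to 0.0459 with cellulose, with no overlap. These shares come from the same values as the changes above and were not tested.

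Chow and 500 ppm were tested against 50 ppm with edgeR's quasi-likelihood test and Benjamini-Hochberg adjustment over all genes. The list was not drawn from these contrasts. The same chow, 500 ppm and 50 ppm mice were, however, the higher side of the carbonyl iron comparisons in view when the genes were listed. These tests are therefore not independent of the choice. On chow against 50 ppm 0 of the 9 genes were called at an adjusted p under 0.05, against 0.391% of 13560 genes. At an unadjusted p under 0.05, which 1408 of all 13560 genes reached, there was 1, Mup15, which was lower on chow by 1.24 on the log2 scale (log2 -1.24, SE 0.53, p = 0.0353, adjusted p = 0.431 by edgeR). Its chow mice, at 196.30, 289.38 and 154.79 CPM, overlapped those at 50 ppm, of which the lowest had 238.82 CPM. Mup20 was lower on chow in every mouse, at 3527.4, 4498.3 and 4787.7 CPM, without overlap (8.17% of genes were lower and 8.88% higher without overlap), but did not pass the test (log2 -0.73, adjusted p = 0.522), and the other 8 members overlapped. Mup7 was higher on chow by 1.13 (SE 0.77, adjusted p = 0.678). Without replicate 1 of the 50 ppm group that difference was 3.38 and was called (adjusted p = 0.013 by edgeR), the only member call in the 6 fits that left out a mouse. All 9 genes overlapped between 500 and 50 ppm, where 3.95% of genes were lower and 3.3% higher without overlap, and 0 were called, as were 0.0% of all genes (428 of 13560 at an unadjusted p under 0.05). The changes ran from -0.36 to 0.20 on the log2 scale.

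The other Mup genes went the same way, but they are not independent of the members. Reads shared by copies are divided by estimation. Of the 31-base words of Mup1, 70.2% occur in another Mup gene, as do 85.6% for Mup9, 83.2% for Mup10 and 93.1% for Mup18. Mup4, Mup5 and Mup6 share less, at 36.9%, 33.1% and 16.1%. The part of shared reads in the calls below was not tested. The list was also chosen with earlier results of these data known. Of the 13 further protein-coding Mup genes, 12 were tested, and 11 fell on 2% iron against 50 ppm (edgeR, adjusted p under 0.05; 7.17% of all genes fell). Their median log2 change was -3.56. Mup10, the most abundant of them, was at 10998, 6310.4 and 6665.7 CPM at 50 ppm and at 1059.9, 1703.2 and 1376.3 CPM on 2% iron, a fall of 2.53 on the log2 scale (SE 0.54, adjusted p = 0.00735). Mup1 fell by 5.96 (SE 0.81) and Mup9 fell by 5.79 (SE 0.62); without replicate 1 of the 50 ppm group the changes were -4.26 and -5.11, and without 2% replicate 3 Mup9 gave -6.80. Mup18 did not pass the test at -2.37 (adjusted p = 0.0951). From 2% iron to cellulose 0 of 12 passed, with 3 in DESeq2, and Mup10 gave -2.76 (adjusted p = 0.0704), or -3.96 without cellulose replicate 3.

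Male-biased liver genes outside the cluster were lower on 2% iron as a group. Of 16 listed and tested, 15 fell and 0 rose against 50 ppm, with a median log2 change of -1.80; the count was 12 to 15 over all alternatives. This list was written with earlier results of these data known, so it is not independent evidence of a direction. Cyp4a12a, which hydroxylates fatty acids, was at 553, 267 and 253 CPM at 50 ppm and at 17.7, 24.3 and 28.2 CPM on 2% iron, a fall of 3.93 (SE 0.42, adjusted p = 0.000144). Elovl3, a fatty acid elongase, fell by 3.48 (SE 0.58), Serpina1e, an antitrypsin, by 3.52 (SE 0.51), and Hsd3b5, a steroid dehydrogenase, by 2.55 (SE 0.47). Cyp2d9, a testosterone hydroxylase, fell by 1.85 (SE 0.25) and Slco1a1, an organic anion transporter, by 1.45 (SE 0.29). Each of these 6 passed in every alternative that gave a value. Elovl3 gave -4.33 without 2% replicate 2, and Serpina1e gave -2.85 without 50 ppm replicate 1.

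With cellulose 4 of the 16 male-biased genes fell further against 2% iron alone, where 0.0737% of all genes fell. Hsd3b5 went from 12.9, 28 and 9.39 CPM to 0.242, 0 and 0.770 CPM, a fall of 5.53 (SE 0.78, adjusted p = 0.0140 by edgeR). Slco1a1 fell by 2.20 (SE 0.30, adjusted p = 0.00979), Serpina1e by 3.29 (adjusted p = 0.0237) and Cyp4a12a by 3.08 (adjusted p = 0.0230). Elovl3 did not pass at -2.95 (adjusted p = 0.101). The count was 10 in DESeq2, where 127 of 12110 genes fell, and 0 without cellulose replicate 2, where 0 of 13845 genes fell. It was 1 without cellulose replicate 1 (3 of 13793 genes fell) and 2 without 2% replicate 2 (5 of 13868). The count thus turns on single mice, as does that of all genes. Without cellulose replicate 3 the changes were -6.94 for Hsd3b5 and -3.98 for Serpina1e.

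Female-biased genes gave a less uniform picture. Of 17 tested, 3 rose on 2% iron against 50 ppm (8.52% of all genes rose) and 0 fell: the cytochrome P450 genes Cyp2b9 and Cyp2a4, and the monooxygenase gene Fmo2. Cyp2b9 was at 0.0969, 2.80 and 1.57 CPM at 50 ppm and at 190, 105 and 132 CPM on 2% iron (log2 6.56, SE 1.60, adjusted p = 0.0145), or 7.32 without 50 ppm replicate 2. At 500 ppm it was at 0.861, 144.69 and 0.144 CPM, so that replicate 2 of that group lay with the 2% mice. The same mouse had the lowest summed Mup level of its group, 13123 CPM. The count was 0 without replicate 1 of the 50 ppm group, where 563 of 13873 genes rose. It was 1 without 50 ppm replicate 3 (880 of 13845 genes), 2% replicate 1 (705 of 13825) or 2% replicate 3 (718 of 13849). Against 500 ppm, where 6.59% of all genes rose, the count was 0. When replicate 2 of the 500 ppm group was left out 6 rose, as did 1214 of 13821 genes.

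Growth hormone signalling, which acts on Mup expression, was described by a list of 16 genes. Of these, 3 fell on 2% iron against 50 ppm, where 7.17% of all genes fell, and 0 rose. Against chow 1 rose and 2 fell (11.9% and 10.9% of all genes), and for cellulose against 50 ppm 1 rose and 4 fell (15.4% and 14.3%). Ghr, the growth hormone receptor, was at 553, 434 and 515 CPM at 50 ppm and at 250.75, 288.73 and 310.80 CPM on 2% iron, a fall of 0.82 (SE 0.13, adjusted p = 0.00148) that passed in every alternative. Igfals, which encodes a carrier of IGF1, fell by 0.78 (adjusted p = 0.0457), and the hepatocyte factor Cebpa fell by 0.40 (adjusted p = 0.0321), but each passed in only 6 of 13 alternatives. Igf1 was at 467.26, 396.23 and 565.56 CPM and at 517.83, 450.52 and 451.86 CPM (log2 -0.01, SE 0.16, adjusted p = 0.976). Stat5b gave -0.04 (adjusted p = 0.848), Socs2, a feedback inhibitor of the receptor, 1.04 (SE 0.68, adjusted p = 0.325) and Bcl6 -1.55 (adjusted p = 0.0506), which passed in 5 of 13 alternatives.

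Of 8 known regulators of Mup genes, 1 rose and 1 fell on 2% iron against 50 ppm, where 8.52% of all genes rose and 7.17% fell. Against chow 2 rose and 3 fell (11.9% and 10.9% of all genes). For cellulose against 50 ppm 1 rose and 5 fell (15.4% and 14.3%). These comparisons share groups of mice. Nr1i3, the nuclear receptor CAR, fell by 0.95 (SE 0.22, adjusted p = 0.0105), a call lost in both limma fits on TPM, and Nr3c1, the glucocorticoid receptor, rose by 0.35 (SE 0.10, adjusted p = 0.0365), which passed in 4 of 13 alternatives. Zhx2 was at 17.6, 13.7 and 18.2 CPM at 50 ppm and at 13, 14.7 and 12.5 CPM on 2% iron (log2 -0.31, adjusted p = 0.0843). Among 6 other lipocalin genes 1 rose, Lcn2, an iron-related acute-phase protein, by 2.76 (SE 0.71, adjusted p = 0.0187) and 0 fell; Lcn2 passed in 10 of 13 alternatives and gave 2.11 without 2% replicate 1 and 3.35 without 50 ppm replicate 2.

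Markers of other cells moved with these changes. All 9 Kupffer cell and macrophage genes rose on 2% iron against 50 ppm in all the fits run, and their summed CPM was 581.5 to 863.7 with cellulose. For comparison, 8.52% of all genes rose and 7.17% fell. Of 10 hepatocyte genes 1 rose and 3 fell. Of 8 pericentral genes 3 fell, with sums of 4043 to 4476 CPM on 2% iron and 7577 to 9020 CPM at 50 ppm, and of 8 periportal genes 2 fell. Of 8 stellate and endothelial genes 1 rose, and 0 of 4 lymphocyte genes changed. The part of these markers in the Mup result was not tested.

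Across the panel, where every mouse ate 2% iron, the summed Mup level spanned a very wide range. The strain median was 575 TPM, with quartiles of 118 and 2300 TPM, and the highest strain was 5610 times the lowest. The 5 highest were BXD14 at 30189 TPM, BXH14 at 19277, BXD19 at 16622, AXB10 at 8354 and BXD39 at 7021. The 5 lowest were BALB/cJ at 5.39 TPM, BXD74 at 8.40, NZB/BlNJ at 8.61, BTBR T<+> tf/J at 9.56 and FVB/NJ at 12. The range within BXD alone was 3590-fold, and AXB/BXA ran from 13.6 TPM in BXA12 to the 8354 TPM of AXB10, so both extremes occur among strains from the same parents. C57BL/6J had 422 TPM, DBA/2J 5346 TPM and A/J 525.5 TPM. BXD14 was thus above and BXD74 below both parental strains of the BXD lines, each measured in 1 mouse.

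The difference between mice of one strain could be seen in a single case. The 2 mice of 129X1/SvJ had 3951 and 590 TPM, a ratio of 6.69, with ratios of 4.84 for Mup3 and 40.4 for Mup7. A difference of that size between a pair of strains with 1 mouse each is thus within what 1 strain showed; that between BXD14 and DBA/2J was smaller. BALB/cByJ, a substrain related to BALB/cJ, had 154.8 TPM against the 5.39 of BALB/cJ. The library labelled BXD65 had 21.7 TPM. Set beside the diet study, which was processed into a separate table and was not tested against the panel, 2 strains reached the lowest mouse of the chow, 50 ppm and 500 ppm groups (17182 TPM), 47 lay within the range of the 6 mice on the 2% iron diets, and 52 lay below the lowest cellulose mouse (450.64 TPM). The panel's own C57BL/6J mouse was among those 52.

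**Figure D2:**
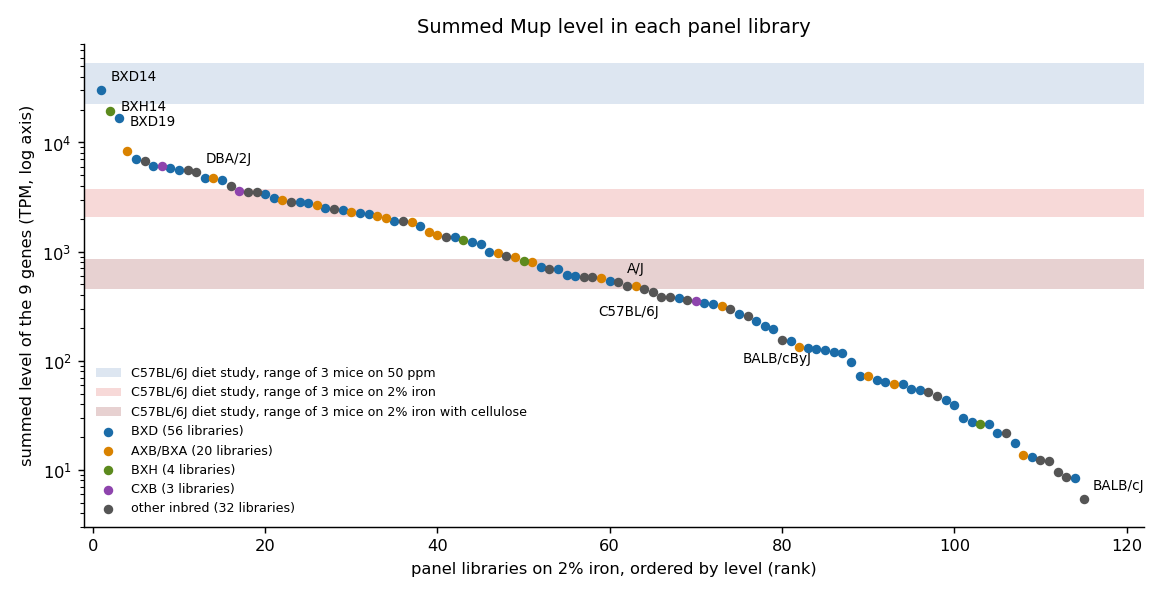
Summed TPM of the 9 genes (vertical log axis) in the panel libraries on 2% iron, ordered from highest to lowest and coloured by family; bands show the range of 3 C57BL/6J mice on 50 ppm, 2% iron and 2% iron with cellulose, from a table processed separately. BXD14 alone lies in the 50 ppm band, and BALB/cJ is lowest at 5.39 TPM.

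Mup3, the leading member in C57BL/6J mice on 2% iron, led in most strains. It was the highest member in 101 of 114 strains and Mup20 in 12. The strain medians were 436 TPM for Mup3 (1.94 to 8169), 62.1 for Mup20 (1.08 to 11930), 5.24 for Mup19 (0 to 3661), 3.97 for Mup14, 3.71 for Mup11, 2.93 for Mup21, 2.33 for Mup7, 0.712 for Mup17 and 0.00119 for Mup15. No reads were assigned to Mup15 in 55 strains, to Mup17 in 47 and to Mup7 in 25. Mup3 and Mup20 were detected in every strain.

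The strains with the highest sums differed in the members to which their reads were assigned. The only reference named in the processing notes is mm10, for every strain. The part of read assignment in these differences was not tested. BXD14 had 10206 TPM of Mup20, 8169 of Mup3, 5876 of Mup7, 2526 of Mup19 and 1924 of Mup11. BXH14 had 11930 TPM of Mup20 and 4213 of Mup3, with 1788 of Mup7 and 236 of Mup19. BXD19 had Mup20, Mup3 and Mup19 at similar levels, 4314, 3758 and 3661 TPM, and 2184 of Mup7. Mup20 thus led in each of these 3 strains, where Mup3 led in most others. Among Mup genes that are not members, Mup10 reached 11469 TPM in 129X1/SvJ (strain median 414) and Mup1 reached 12583 TPM in CBA/J (strain median 7.58), a strain whose members summed to 6746 TPM. CBA/J was named after its values were seen. The 13 other Mup genes together had a strain median of 452 TPM and were highest in DBA/2J, at 23276 TPM, where the 9 members had 5346.

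**Figure D3:**
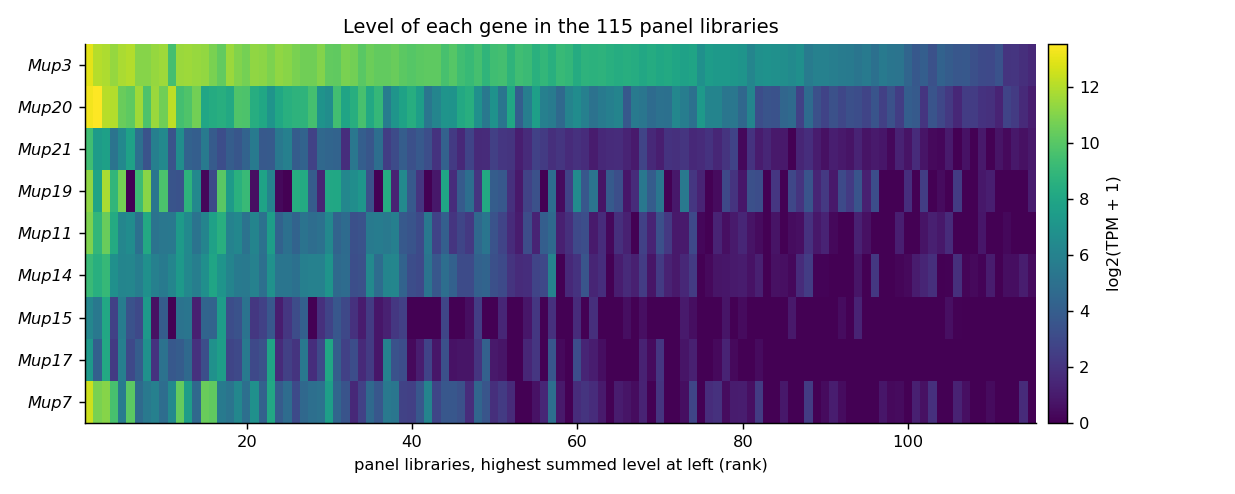
Level of each of the 9 genes (rows; colour is log2(TPM + 1)) in the panel libraries, ordered by their summed level. Mup3 and Mup20 are present in every library, while Mup19 is near 0 in some libraries with high Mup3 (0.0126 TPM in CBA/J) and Mup15 is at 0 in 55 strains.

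The spread of these genes across strains ranked among the widest of all genes. The SD of log2 CPM across strains was 3.89 for Mup19, rank 7 of 12348 genes, 3.59 for Mup7 (rank 10), 2.99 for Mup20 (rank 25), 2.83 for Mup3 (rank 32) and 2.24 for Mup21 (rank 86), against 0.322 for the median gene. Within the diet groups, where the mice are of 1 strain, it was 0.544 for Mup19, 1.12 for Mup7, 0.510 for Mup20, 0.389 for Mup3 and 0.457 for Mup21, against 0.186 for the median gene. The strain spread was 7.27 times this spread within diet groups for Mup3 and 2.85 times for Mup14, the lowest of the 9. The spread within diet groups comes from 1 strain and may not hold for panel mice. The 2 mice of 129X1/SvJ differed by a ratio of 4.84 for Mup3, and by 3.78 (Mup14) to 40.4 (Mup7) over the 9 genes. How much of the panel spread lies between strains was therefore not measured. The SDs and their ratios are descriptions from separate tables, and the strain values include the spread between mice.

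The level of Mup19 relative to Mup3 separated strains with similar Mup3. Of 54 strains with Mup3 of at least 500 TPM, the ratio was under 0.01 in 20, between 0.01 and 0.1 in 16 and at least 0.1 in 18. CXB7 had the highest ratio, 1.04, followed by BXD19 at 0.974 and CXB12 at 0.843. DBA/2J had 0.0033. CBA/J had 4068 TPM of Mup3 and 0.0126 TPM of Mup19. All 12 AXB/BXA strains above that Mup3 level lay between 0.0123 and 0.27, while 11 of 24 BXD strains and 8 of 13 other inbred strains lay under 0.01. Every 31-base word of Mup19 is shared with another Mup gene, and the part of read assignment in these ratios was not tested. These strains were named after their values were seen.

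**Figure D4:**
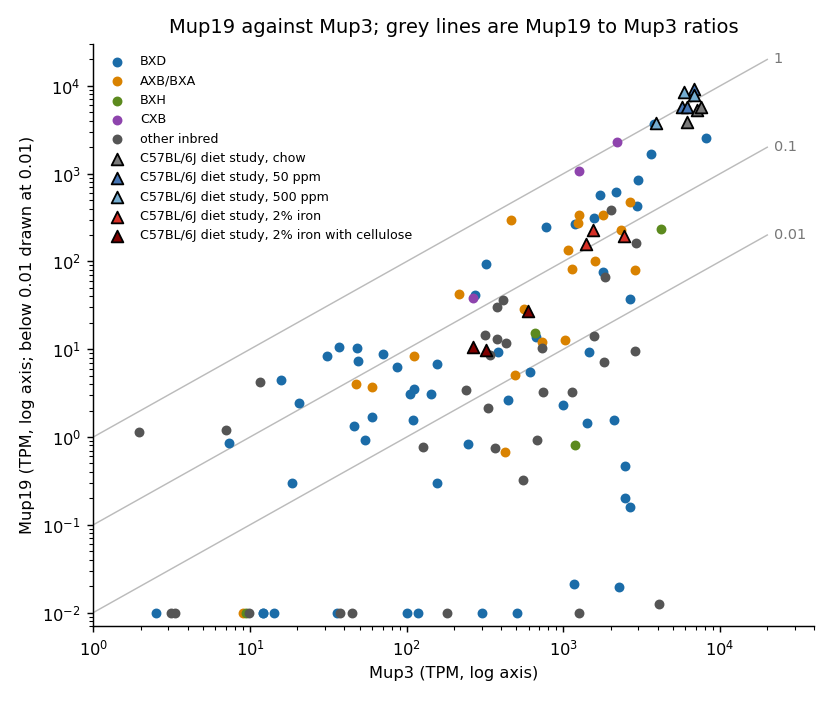
Mup19 against Mup3 (TPM, both log axes; values under 0.01 drawn at 0.01) in panel libraries (circles, by family) and in the C57BL/6J diet mice (triangles, by diet), with grey lines at ratios of 1, 0.1 and 0.01. The diet mice run from a ratio near 1 to 0.0306, and strains with Mup3 above 500 TPM spread from 1.04 to near 0.

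Taking strains as replicates, BXD and AXB/BXA were compared in one edgeR fit of 13794 genes, of which 11.6% were called. Of the 9 members 1 was called: Mup15 was higher in BXD by 2.57 (SE 0.89, adjusted p = 0.0468). The call rested on a few strains, since the median Mup15 level was lower in BXD (0.192 TPM) than in AXB/BXA (0.993 TPM) and BXD19 alone reached 282 TPM. Without BXD14 and BXD19 the change was 1.15 (adjusted p = 0.336), and it was also lost with no filter, in DESeq2 and in both limma fits. The other 8 did not pass, with changes from -0.26 for Mup17 (adjusted p = 0.879) to 1.64 for Mup7 (SE 1.09, adjusted p = 0.356). The medians of the summed level were 357.57 TPM in BXD and 1193.9 TPM in AXB/BXA, and the ranges overlapped.

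Across strains the 3 members with the most sequence of their own, Mup3, Mup20 and Mup21, were related to 9 chosen partner genes. Of these 27 relations 23 passed a permutation test with 100000 resamples and Benjamini-Hochberg adjustment over the 27, 15 positive and 8 negative. The share of all genes that would pass the same test is not given here, so the count shows nothing particular to these partners. The smallest p the resamples can give is 1e-05, which is 1.5e-05 after adjustment. Mup3 was higher in strains with more Cyp4a12a (Pearson r = 0.766, Spearman rho = 0.793), Elovl3 (r = 0.759, rho = 0.761), Hsd3b5 (r = 0.731, rho = 0.796) and Slco1a1 (r = 0.582, rho = 0.632), each at that smallest adjusted p over 114 strains. Without the 2 strains farthest from the median of Mup3, BALB/cJ and BTBR T<+> tf/J, these r were 0.756, 0.742, 0.745 and 0.592. Within BXD they were 0.787, 0.812, 0.832 and 0.758, and within the other inbred strains 0.815, 0.787, 0.65 and 0.547. Within the 20 AXB/BXA strains they were 0.603, 0.456, 0.665 and 0.629, of which that with Elovl3 did not pass (permutation adjusted p = 0.0683).

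Mup20 and Mup21 gave similar values with these 4 partners. For Mup20 r was 0.788 with Cyp4a12a (rho 0.792), 0.753 with Elovl3 (rho 0.716), 0.707 with Hsd3b5 (rho 0.718) and 0.542 with Slco1a1 (rho 0.541). For Mup21 it was 0.784 (rho 0.798), 0.747 (rho 0.736), 0.792 (rho 0.758) and 0.529 (rho 0.543) in the same order. Each of these 8 was at the smallest adjusted p. Within AXB/BXA that of Mup21 with Elovl3 did not pass (r = 0.397, permutation adjusted p = 0.112). The female-biased Cyp2b9 gave r of -0.00767 for Mup3 (adjusted p = 0.935), -0.203 for Mup20 (adjusted p = 0.0351) and -0.227 for Mup21 (adjusted p = 0.0181); by Spearman's rho none of the 3 passed, and without the 2 strains farthest from the member's median both calls were lost, at -0.102 and -0.182. Without the 2 strains farthest in Cyp2b9 they were -0.297 and -0.338 and passed. Within BXD all 3 passed, at -0.314, -0.384 and -0.503, within AXB/BXA only Mup20 did, at -0.49, and within the other inbred strains none did.

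Of the signalling partners, Socs2 was inversely related to all 3 members in the 114 strains, while Igf1 depended on the scale. Socs2 gave r of -0.581 with Mup3 (rho -0.621), -0.479 with Mup20 (rho -0.504) and -0.494 with Mup21 (rho -0.546). Within AXB/BXA it passed with none of the 3 (permutation adjusted p of 0.0683, 0.098 and 0.149), and within the other inbred strains not with Mup21 (adjusted p = 0.0887). Igf1 gave 0.0277 (adjusted p = 0.8), -0.0419 (adjusted p = 0.709) and -0.0749 (adjusted p = 0.482) on log2 CPM. On log2(TPM + 1) it gave 0.297 with Mup3 (adjusted p = 0.00142) and 0.223 with Mup20 (adjusted p = 0.0182), which passed, and 0.159 with Mup21, which did not. Lcn2 was inverse as well, with r of -0.45, -0.366 and -0.392, but with Mup20 it passed within no family (adjusted p of 0.068 in BXD, 0.066 in AXB/BXA and 0.101 in the other inbred strains), and with Mup3 not within AXB/BXA (0.132). Zhx2 was positively related, with r of 0.512 for Mup3 (rho 0.557), 0.438 for Mup20 (rho 0.529) and 0.326 for Mup21 (rho 0.494). Within AXB/BXA it did not pass with Mup20 (permutation adjusted p = 0.066), and within the other inbred strains not with Mup21 (adjusted p = 0.161). BALB/cJ, the strain with the lowest Mup sum, had the lowest Zhx2, 0.478 CPM, and NZB/BlNJ had 5.35 CPM (a strain named here after its Zhx2 value was seen), against 15.3 CPM in C57BL/6J and 16.5 CPM in BALB/cByJ. Without BALB/cJ and NZB/BlNJ the Zhx2 relations were 0.549, 0.522 and 0.488, so they did not rest on those strains. All these genes come from the same libraries, so they share depth and any difference in cell make-up.

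**Figure D5:**
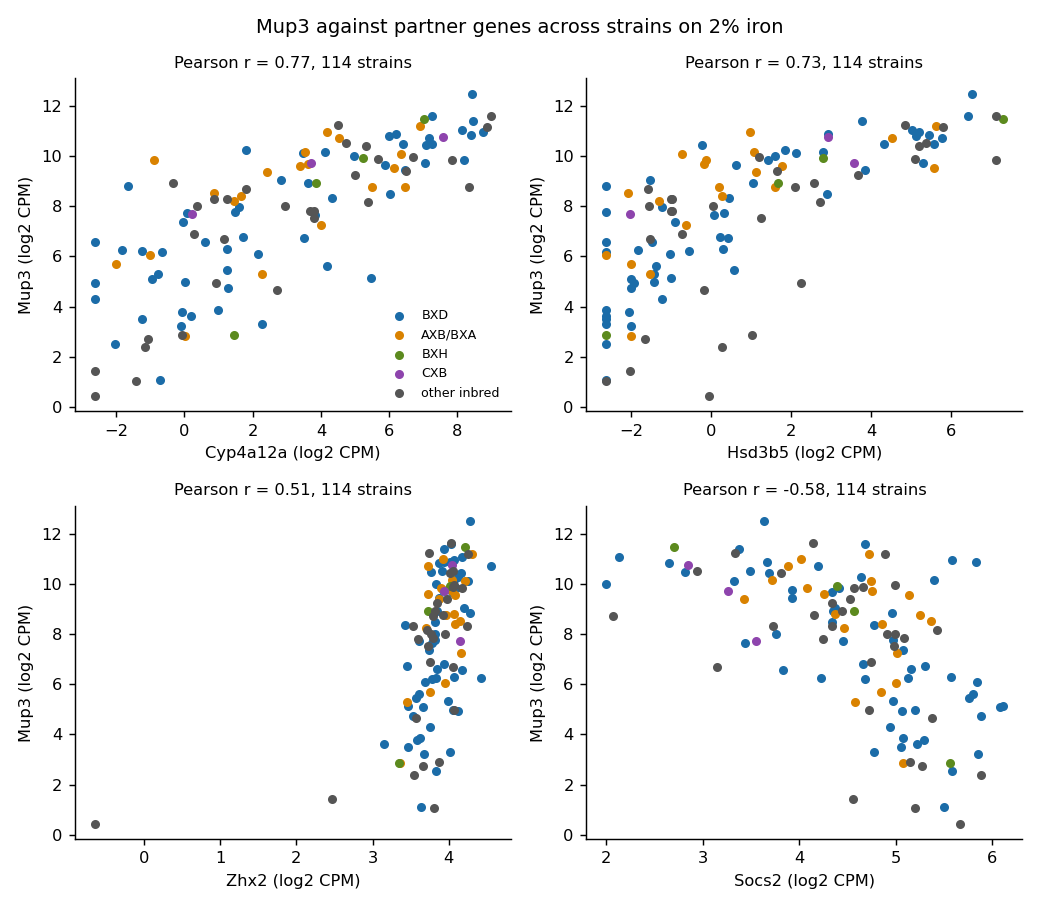
Mup3 against Cyp4a12a, Hsd3b5, Zhx2 and Socs2 (log2 CPM on both axes) across 114 strains on 2% iron, coloured by family. Mup3 is higher in strains with more Cyp4a12a and Hsd3b5 and lower in strains with more Socs2, and 2 strains stand apart at low Zhx2.

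Among the 12036 genes that averaged 1 CPM or more, those whose log2 level ran closest to the summed Mup level over the 114 strains were Ces3a, a liver carboxylesterase (r = 0.854), Cat, which encodes catalase (r = 0.83), Adh4, an alcohol dehydrogenase (r = 0.825), Cyp2d9 (r = 0.82) and Nudt7, a peroxisomal coenzyme A hydrolase (r = 0.81). Those most opposed were Abcc4, an efflux transporter (r = -0.776), Eif4enif1, a transporter of a translation initiation factor (r = -0.753), and Nipal1 (r = -0.736). Ces3a ran from 0.501 to 1740 CPM across libraries and Cat from 630 to 2738 CPM. The sign of each of these 8 was the same within BXD, within AXB/BXA and within the other inbred strains.

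By list, r with the summed level was positive for 16 of 16 male-biased genes, from 0.408 for Selenbp2 to 0.82 for Cyp2d9, with a median of 0.744. It was positive for 2 of 18 female-biased genes, with a median of -0.258, and for 8 of 16 growth hormone signalling genes, with a median of 0.0337. Within that list Ghr had the highest r, 0.752, and Cux2, a transcription factor gene with female-biased liver expression, the lowest, -0.662. Of 8 regulators 5 were positive, from Ppargc1a at -0.514 to Thrb, the thyroid hormone receptor beta gene, at 0.549. The genes at the ends of each list were named after their values were seen, and all these r are descriptions that carry no test. The share of all genes with a positive r is not given here. Pairs of members had r of 0.479 to 0.937 (Mup11 with Mup14) over the 36 pairs, with a median of 0.79; copies share reads, whose part in these r was not tested.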

How the data were processed

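Liver mRNA of 130 male mice was sequenced from a stranded mRNA kit, per the labels. The deposited tables hold estimated counts and TPM per Ensembl gene, and the authors used kallisto 0.46 and mm10, per the submitters' processing notes; an Ensembl release is named for the panel tables only, and no read length, strand setting or release for the diet tables is given in the sources used here. Because kallisto divides reads shared by paralogs by estimation, values of near-identical Mup copies are less certain than the sum over all copies. The sum of the members is not free of this, since they also share words with Mup genes outside the list. Of the words of Mup15, 88.6% occur in Mup2, and of those of Mup19, 86.9% in Mup9. Of the words of Mup3, 28.2% occur in any other Mup gene. The 2 studies are in separate tables and were not tested against each other.

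Symbols and positions came from GENCODE M21 (GRCm38), with symbols found for 34845 of 35274 diet identifiers and for 35612 of 35711 panel identifiers. Counts were rounded to whole numbers, since the design had assumed whole counts, and tested with edgeR 4.0.16 (R 4.3.3; quasi-likelihood, TMM, filterByExpr, all 15 diet mice in one fit), two-sided, called at an adjusted p under 0.05. CPM were scaled by TMM; log2 CPM used a prior count of 2. The test code was checked on simulated data. Correlations used 114 strains, 129X1/SvJ entering as the mean of its 2 mice, and two-sided permutation. Related substrains entered them as separate strains. No gene entering them split into separate clusters (2-component mixture, Ashman D above 3, BIC gain above 10, at least 3 strains in each). Python 3.11.15 with numpy 2.4.6, pandas 2.3.3, scipy 1.17.1, scikit-learn 1.9.0, Biopython 1.88 and matplotlib 3.10.9 was used.

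Processing was varied with DESeq2 1.42.0, with RLE in place of TMM, without the filter, with a floor of 10 counts per library, with only the 2 compared groups fitted, and with limma 3.58.1 on log2(TPM + 1) and log2(TPM + 0.1), a prior count of 0.5, each mouse left out in turn, and sets of strains left out or averaged.

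The members and all gene lists were chosen with earlier results of these data known. By rule, the text names the 9 members, other Mup genes above 1 TPM on average, 9 partner genes, up to 4 more per list with the largest mean CPM, the 5 genes most like and 3 least like the summed level, and the strains at the ends of its order with C57BL/6J, DBA/2J, A/J, BALB/cJ, BALB/cByJ, 129X1/SvJ and BXD65; not every such gene is named, and the result of 1 listed regulator is not reported here. Other genes and strains were chosen after their values were seen. Nothing in the labels says that the mice of a diet group came from separate litters or cages, so p-values measure the spread between these mice. No 2 libraries held identical values. At the lowest depth, 3 counts correspond to 0.319 CPM.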

Additional observations from a re-analysis of the deposited data

Results flagged for a closer look

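In the 4 BXH strains, BXH14 stood apart as the highest for the summed level and for 8 of the 9 members, by a gap to the next strain that exceeded the 95% critical value of Dixon's test for 4 samples. The test was run on TPM and not on a log scale, and its rate of about 1 in 20 by chance holds for values near a normal distribution. Levels of these genes spread over orders of magnitude across strains, so that rate cannot be taken to hold here. The members are also correlated, so these are not separate events. The summed level was 19300 TPM in BXH14 and 26.4 to 1280 TPM in the other 3. Mup20 was at 11900 TPM, against 10.3 to 117, and Mup7 at 1790 TPM, against 2.59 to 6.05. Mup11 was at 508 TPM, against 1.28 to 9.85, and Mup14 at 373 TPM, against 2.5 to 11.7. Mup19 was at 236 TPM, against 0 to 15.2, and Mup21 at 170 TPM, against 0.281 to 5.01. Mup15 was at 41.7 TPM, against 0 in the other 3, and Mup17 at 17.1 TPM, against 0 to 0.92. Mup3 was highest in the same strain, at 4210 TPM, but its gap was 0.722 of the range. BXH14 was measured in 1 mouse.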

How the results depend on the processing

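The differences on 2% iron kept their direction in every member and every alternative that gave a value. The median log2 change of the members over the fits that left out 1 mouse was -7.05 to -5.10 for 2% iron against 50 ppm, -6.70 to -5.90 against 500 ppm, -6.72 to -5.90 against chow, -2.75 to -2.15 for cellulose against 2% iron and -9.94 to -7.70 for cellulose against 50 ppm. With at least 10 counts in every library only 6 members were left, and the medians were -4.53 against 50 ppm, -4.35 against 500 ppm, -4.12 against chow and -7.59 for cellulose against 50 ppm; limma on log2(TPM + 1) gave -5.82 against chow. The summed level on 2% iron was 6.87 to 12.70 percent of the 50 ppm mean, and with cellulose 1.29 to 2.50 percent, when 1 mouse was left out. Member calls for chow against 50 ppm were 0 to 1 and for 500 against 50 ppm 0 to 0 over the same fits.

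Changes near 0 turned sign, and the cause was not tested. For chow against 50 ppm, leaving out 1 mouse gave -0.49 to 0.78 for Mup11, -1.28 to 0.33 for Mup17 and -0.59 to 0.03 for Mup21, and both limma fits gave 0.01 for Mup11. For 500 against 50 ppm the ranges were -0.55 to 0.72 for Mup11, -0.72 to 1.24 for Mup14, -0.28 to 1.03 for Mup15, -0.21 to 1.41 for Mup17, -0.30 to 0.29 for Mup19, -0.61 to 0.14 for Mup20, -0.51 to 0.10 for Mup21, -0.31 to 0.02 for Mup3 and -0.81 to 1.93 for Mup7, and both limma fits gave 0.15 for Mup14 and 0.60 for Mup7. Igf1 on 2% iron against 50 ppm was 0.08 in both limma fits and -0.13 to 0.13 without 1 mouse.

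For BXD against AXB/BXA, 0 members were called with no filter, with at least 10 counts in every library, in DESeq2, in both limma fits and without BXD14 and BXD19. DESeq2 gave -0.12 for Mup7. With limma on log2(TPM + 0.1) the change was -0.79 for Mup11, -0.85 for Mup14, -2.76 for Mup19, -0.59 for Mup20, -0.04 for Mup21 and -0.59 for Mup7; on log2(TPM + 1) it was -0.48, -0.48, -2.06, -0.56, -0.03 and -0.16 in the same order. With substrains averaged Mup3 gave 0.10. Without BXD14 and BXD19 the change was -1.44 for Mup11, -0.46 for Mup14, -0.38 for Mup19, -0.71 for Mup20 and -0.67 for Mup7.

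Of the 27 relations, 14 passed within AXB/BXA, 23 within BXD and 18 within the other inbred strains. The relation with Igf1 changed sign: with log2(TPM + 1) r was 0.223 for Mup20 and 0.159 for Mup21, without the 2 strains farthest in Igf1 -0.0576 for Mup3, within BXD -0.115 for Mup3, within AXB/BXA 0.179 for Mup20 and 0.162 for Mup21, and within the other inbred strains 0.153 for Mup20 and 0.0729 for Mup21. Mup3 with Cyp2b9 gave 0.110 within the other inbred strains.

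Over all alternatives, values of single genes, single relations and counts by gene list were classed together. Of these, 2359 were classed as the same, 170 as weaker, 69 as stronger, 24 as moved and 60 as changed in sign. For tested genes and relations, weaker and stronger mean that the threshold was lost or gained. Untested changes were classed by the spread between mice, and list counts by their size.

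No paired analysis was possible because the labels carry no replicate numbers. Depth limits Mup15 and Mup17 on the 2% iron diets, where they rest on a few reads. Shared reads limit every central copy and, through copies outside the list, the sum of the members.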
